A study of Mus musculus with 2 samples.

Results

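The arterial identity genes described here are Sox17, Gja4, Gja5, Sema3g, Mecom, Bmx, Efnb2 and Hey1, 8 genes taken by symbol from the 34144 genes of the deposited feature lists, where each symbol stands on 1 row. Their RNA was counted in single cells of long-bone marrow in 1 library from old and 1 library from adult mice, both WT and of the strain C57BL6. Per the labels, the bones were flushed and digested with collagenase IV, dispase and DNase, red cells were lysed, haematopoietic cells were depleted on a magnetic separator, and live cells were sorted and run on the 10x Genomics 3′ kit as stromal cells. The labels give age as a word, and the number of mice behind a library is not given in the sources used here. With 1 library for each age there is no replicate check and no test of a difference between the ages, and age cannot be told apart from anything else that differed between the libraries. All intervals below are 95% intervals that cover counting error only, exact Clopper-Pearson for shares of cells, exact Poisson for levels and exact binomial for the log2 ratio of old over adult.

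Arteries and veins are lined by endothelial cells that take on separate identities early in development. VEGF and Notch signalling in arterial cells act with SOXF and ETS transcription factors, and the cell surface ligand ephrin-B2 on the arterial side faces its receptor EphB4 on the venous side. In marrow, arteries and arterioles open into a wide network of sinusoids, whose endothelium carries scavenger receptors such as stabilins and little of the arterial programme. Sox17, Mecom and Hey1 encode transcription factors, Gja4 and Gja5 encode the gap junction proteins connexin 37 and connexin 40, Efnb2 encodes ephrin-B2, Sema3g a secreted semaphorin and Bmx a TEC-family tyrosine kinase.

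The old library held 22298 barcodes and the adult library 25635, of which 18975 and 22403 had at least 500 genes and at most 10% mitochondrial UMIs (unique molecular identifiers, the counted molecules), with medians of 7736 and 7139 UMIs. The libraries shared 152 barcode sequences, 108 of them among filtered cells and 0 among the endothelial cells used below. Endothelial cells were first taken as all filtered cells with at least 5 UMIs summed over 6 pan-endothelial genes, Cdh5, Kdr, Egfl7, Tek, Cldn5 and Tie1. This gate held 662 old cells, 3.49% of the library (3.23 to 3.76), and 1698 adult cells, 7.58% (7.24 to 7.93). Just outside it, at 4 UMIs, lay 84 old and 154 adult cells, of which 65 and 4 carried Egfl7 alone, and just inside, at 5 UMIs, lay 86 and 120, of which 63 and 0 did.

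In the old library the gate did not hold one kind of cell. Of its 662 cells, 317 (47.9%) carried only 1 or 2 of the 6 genes, and 286 of these carried Egfl7 alone, against 47 (2.77%) and 1 among adult gated cells. The 317 old cells had a median of 70566 UMIs and a median of 20.1 UMIs per 10000 of 5 erythroid genes (among them Alas2 and Klf1), while a list of 12 other pan-endothelial genes such as Pecam1, Eng and Erg stood at a median of 0.511 per 10000. In the 345 old cells with at least 3 of the 6 genes these medians were 5031 UMIs, 0 and 113. The 317 cells also held 22531756 of the 25003785 UMIs of the old gate, so that any level pooled over the gate was mostly theirs, and they held 127 of its UMIs of the 8 arterial genes against 6104 in the other 345. The cell label is therefore borne out by its markers for the 345 old and 1651 adult cells with at least 3 of the 6 genes, and not for the other old cells. Results are given for these 345 and 1651 cells, called endothelial cells from here on, and beside them for all gated cells.

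**Figure D1:**
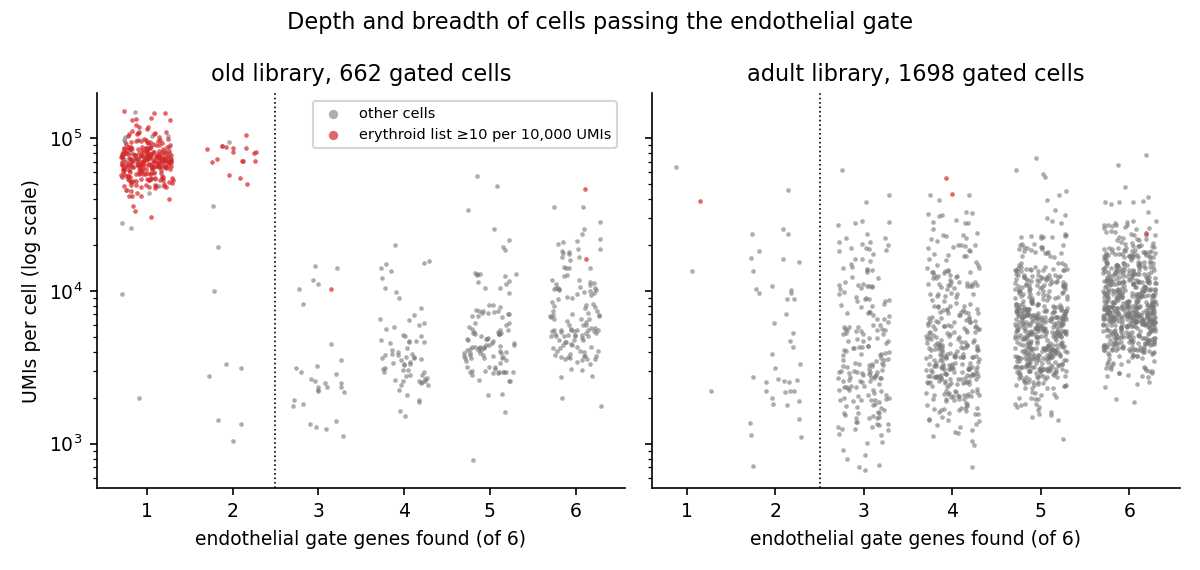
Each point is a gated cell, placed by how many of the 6 endothelial gate genes it carried (horizontal, spread at random within a value) and by its UMIs (vertical, log scale), with the old library on the left and the adult library on the right; red cells had at least 10 UMIs per 10000 of the 5 erythroid genes. The 317 old cells left of the dotted line had a median of 70566 UMIs and were mostly red, while 47 adult cells lay there.

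Endothelial cells made up 1.82% of filtered cells in the old library (1.63 to 2.02) and 7.37% in the adult library (7.03 to 7.72). Depletion and sorting can set such a share, and their part in it was not tested. Endothelial cells of the old library carried more RNA of CXCL12-abundant reticular (CAR) markers, with a median of 35.7 UMIs per 10000 over 8 genes against 19.0 in the adult library, and less of 9 osteolineage markers, 3.44 against 17.3. Their fibroblast list stood at 17.0 against 7.09, their B lineage list at 21.0 against 8.13, and their erythroid list without haemoglobin at 0 in both. Ly6c1 alone held 1179 of the 1663 CPM (a pooled level, defined below) of the fibroblast list in old endothelial cells. In adult ones it held 430 of 1231. The rest of that list was lower in the old library, so its higher pooled level there rested on Ly6c1. Fibroblast medians without Ly6c1 were not taken. In cells outside the gate the osteolineage median was also lower in the old library, and the fibroblast median also higher, at 3.95 against 2.67. The CAR median there was nearly level, at 198 in old and 193 in adult cells. The B lineage median there was slightly lower in old cells, at 27.7 against 29.3. The part of these lists in the results below was not tested, except that the 8 ratios were also taken without cells high in CAR markers.

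All 8 arterial genes were higher in old than in adult endothelial cells, by 2.26 to 6.15 times, and no interval of a log2 ratio reached 0. The 5 members that passed a minimum of 50 CPM (UMIs per 1000000 UMIs of the cells summed) and 50 UMIs in the library where they were higher (Sox17, Gja4, Sema3g, Mecom and Efnb2) were each at least 2-fold higher, whereas 5.11% of the 4616 genes past that minimum were 2-fold higher in old endothelial cells and 4.29% were 2-fold lower. The median log2 ratio was 1.81 over the 8 members and -0.02 over the 4616 genes. The median was -0.14 for the shortest 25% of these genes and 0.02 for the longest.

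Over all gated cells the order was the opposite, and all 8 members were lower in the old library, by 1.59 to 4.24 times. Of the 5 past the minimum, 3 were at least 2-fold lower, where 34.1% of 5423 genes were 2-fold lower and 28.2% were 2-fold higher. The median over the members was -1.48, against -0.21 over all genes tested and -3.05 over the 12 pan-endothelial genes, all 12 of which were 2-fold lower. In these cells the shortest 25% of genes had a median log2 ratio of 1.07 and the longest -1.46.

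Among the transcription factors, Mecom (EVI1, a zinc-finger factor also known from blood stem cells) had the largest ratio of the 8. It stood at 958 CPM in old endothelial cells (919 to 997) and 156 in adult ones (149 to 162), a log2 ratio of 2.62 (2.54 to 2.70). Sox17, a SOXF factor needed for arterial fate in mice, stood at 267 (247 to 289) in old and 73.7 (69.2 to 78.3) in adult endothelial cells, a log2 ratio of 1.86 (1.72 to 2.0). Hey1, a repressor induced by Notch, was sparse, with 106 UMIs in old and 246 in adult endothelial cells, or 42.9 and 17.7 CPM, and its log2 ratio of 1.28 had a wide interval (0.93 to 1.61). For all 3 the old and adult intervals lay apart. Over all gated cells the log2 ratios were -0.67 for Mecom, -1.45 for Sox17 and -1.88 for Hey1.

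The connexins join neighbouring cells of the arterial wall. Gja4 stood at 229 CPM (210 to 249) in old endothelial cells and 67.1 (62.9 to 71.6) in adult ones, a log2 ratio of 1.77 (1.62 to 1.92). Gja5, known in mice from the endothelium of larger arteries, rested on 107 old and 147 adult UMIs, which gave 43.3 CPM (35.5 to 52.3) and 10.6 (8.94 to 12.4) and a log2 ratio of 2.03 (1.66 to 2.40). Both were below their adult values over all gated cells, at -1.51 for Gja4 and -1.23 for Gja5.

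The promoters of 6 of the 8 members (Gja4, Gja5, Sema3g, Mecom, Bmx and Efnb2) were matched by symbol in RefSeq on GRCm38.p6, an older build than that of the counts. The 250 bases before the start were searched on both strands for ACAAT, the core bound by SOX factors, and TGGGAA, the core bound by the Notch effector RBPJ. Of 32851 mouse promoters of that length, 27.7% hold ACAAT and 21.6% hold TGGGAA on either strand. Only Gja4 and Bmx of the matched members hold either of them. Both are shown with capitals marking the matches, together with Gja5 and Efnb2, a connexin and a ligand of the same arterial set in which neither core stands in this window.
Gja4, chr4:127314040-127314289, minus strand: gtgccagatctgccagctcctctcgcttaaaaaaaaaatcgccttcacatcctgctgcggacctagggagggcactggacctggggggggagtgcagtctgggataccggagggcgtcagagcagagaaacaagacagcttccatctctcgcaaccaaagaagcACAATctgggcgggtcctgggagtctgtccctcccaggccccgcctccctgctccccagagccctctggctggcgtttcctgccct
Bmx, chrX:164258194-164258443, minus strand: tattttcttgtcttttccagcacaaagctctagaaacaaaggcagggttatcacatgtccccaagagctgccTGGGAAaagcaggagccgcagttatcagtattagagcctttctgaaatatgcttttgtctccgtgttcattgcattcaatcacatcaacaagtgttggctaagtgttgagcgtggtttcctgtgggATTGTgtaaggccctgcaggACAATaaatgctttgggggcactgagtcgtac
Gja5, chr3:97032152-97032401, plus strand: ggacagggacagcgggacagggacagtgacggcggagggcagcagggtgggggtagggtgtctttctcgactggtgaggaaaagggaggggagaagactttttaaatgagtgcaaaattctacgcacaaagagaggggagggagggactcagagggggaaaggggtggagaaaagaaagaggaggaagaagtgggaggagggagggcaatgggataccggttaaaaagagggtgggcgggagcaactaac
Efnb2, chr8:8661243-8661492, minus strand: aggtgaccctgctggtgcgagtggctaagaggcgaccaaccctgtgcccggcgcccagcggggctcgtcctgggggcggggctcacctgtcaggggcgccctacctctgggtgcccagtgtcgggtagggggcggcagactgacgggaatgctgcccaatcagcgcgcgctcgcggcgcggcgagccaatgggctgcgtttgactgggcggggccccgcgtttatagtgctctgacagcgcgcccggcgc
The Gja4 match begins 86 bases before the start. Bmx holds ACAAT 32 bases and its reverse complement ATTGT 52 bases before the start, and TGGGAA 178 bases before it. The Efnb2 window has 27 CG pairs and 72.0% G and C, against 4 CG pairs and 45.6% in Bmx. A match of so short a core is a description of the letters and not a bound site.

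Of the ligands and the kinase, Efnb2 was the member with the smallest ratio. It had 508 CPM in old endothelial cells (481 to 537) and 225 in adult ones (217 to 233), a log2 ratio of 1.17 (1.08 to 1.27). Sema3g, whose protein signals through neuropilins and plexins, had 377 (353 to 402) in old and 64.4 (60.3 to 68.8) in adult endothelial cells, a log2 ratio of 2.55 (2.41 to 2.68). Bmx rested on 109 old and 193 adult UMIs, or 44.1 (36.2 to 53.2) and 13.9 (12.0 to 16) CPM, with a log2 ratio of 1.67 (1.31 to 2.01). The old and adult intervals of each lay apart. Over all gated cells the log2 ratios were -2.08 for Efnb2, -0.75 for Sema3g and -1.55 for Bmx.

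**Figure D2:**
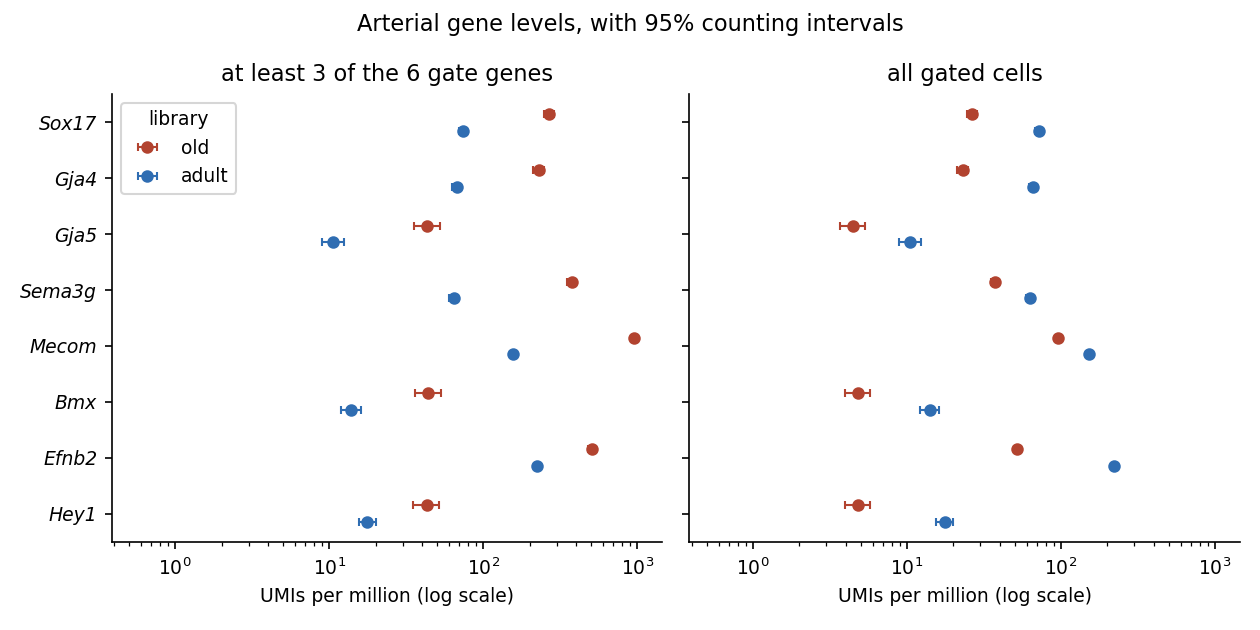
Levels of the 8 genes in CPM (log scale) with 95% counting intervals, old (red) above adult (blue), in cells with at least 3 of the 6 gate genes on the left and in all gated cells on the right. All 8 were higher in old on the left, by log2 ratios of 1.17 to 2.62, and all 8 lower in old on the right.

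The share of endothelial cells in which a gene was found followed the levels. Mecom was present in 77.7% of old and 27.7% of adult endothelial cells, Sema3g in 71.6% and 23.6%, and Sox17 in 61.7% and 30.0%. Gja4 was found in 52.5% and 17.3%, and Efnb2 in 85.2% and 56.3%. The sparse members were found in few cells of either library, Gja5 in 13.9% of old and 4.91% of adult, Bmx in 18.3% and 6.78%, and Hey1 in 20.6% and 9.99%. Thus every member was found in a larger share of old endothelial cells, at a lower median depth (5031 against 6288 UMIs).

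Thinning each cell to 3000 UMIs, which left out 62 old and 262 adult cells below that depth, kept this order for all 8. The thinned shares were 66.8% of old and 19.9% of adult endothelial cells for Mecom, 57.6% and 15.3% for Sema3g, 44.2% and 18.2% for Sox17, 42.8% and 11.4% for Gja4 and 73.1% and 40.9% for Efnb2. They were 11.3% and 2.59% for Gja5, 13.4% and 3.46% for Bmx and 13.8% and 5.47% for Hey1. As background, and without thinning, Sox17 was present in 0.210% of old and 0.376% of adult CAR-like cells outside the gate. These had median depths of 7402 and 7174.5 UMIs. Thinned shares over all gated cells were also higher in old than adult for 7 of the 8, Sox17 at 22.4% against 16.9% and Mecom at 31.9% against 20.1%, while Efnb2 stood at 34.1% against 38.1%.

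Arterial genes were found together in more of the old endothelial cells. At least 2 of the 8 were found in 296 of 345 old endothelial cells, 85.8% (81.7 to 89.3), and in 715 of 1651 adult ones, 43.3% (40.9 to 45.7). After thinning to 3000 UMIs these shares were 74.9% and 28.2%. Without thinning and over all gated cells they were 46.8% and 42.8%. At least 4 were found in 212 old cells (61.4%) and 277 adult cells (16.8%), and all 8 in 14 old and 9 adult cells. None was found in 17 old cells, 4.93%, against 459 adult cells, 27.8%. The most common count was 5 members per cell in the old library and 1 in the adult library.

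**Figure D3:**
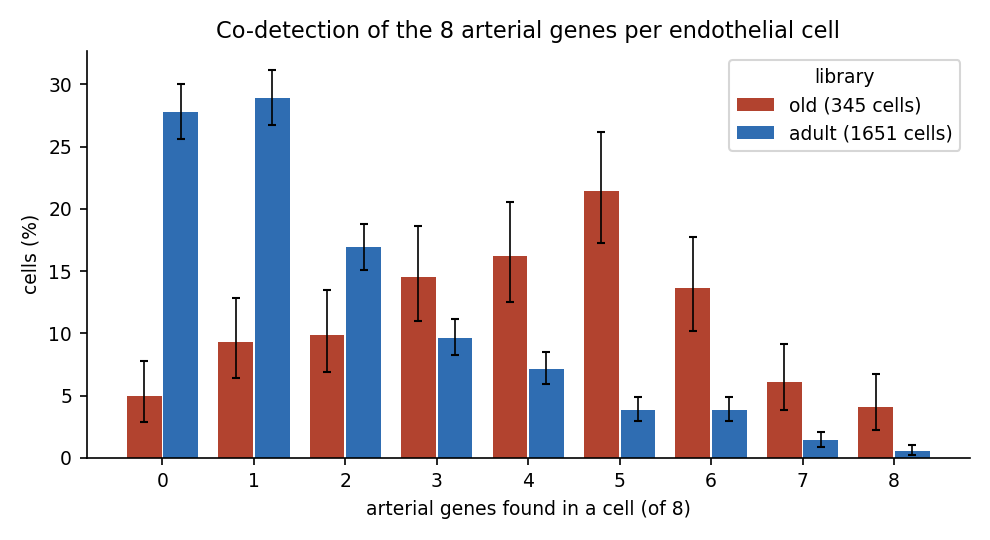
Share of endothelial cells (vertical, percent, with 95% Clopper-Pearson intervals) by the number of the 8 arterial genes found in the cell (horizontal), old bars left of adult bars. Old cells peaked at 5 genes (21.4%), adult cells at 1 gene (28.9%), and 27.8% of adult cells had none.

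Cells with at least 4 members, the gene counted among them, held most UMIs of the members, which the choice of cells fixes in part. In the old library these 212 cells, 61.4% of the endothelial cells, held all UMIs of Gja5 (107) and Hey1 (106) found in endothelial cells, 96.3% of those of Bmx, 94.5% of Gja4, 92.7% of Sox17, 92.1% of Sema3g, 86.1% of Mecom and 75.3% of Efnb2. In the adult library 277 cells, 16.8% of the endothelial cells, held 95.2% of Gja5, 83.4% of Gja4, 75.6% of Sema3g, 72.9% of Mecom, 68.3% of Hey1, 65.8% of Bmx, 64.0% of Sox17 and 46.6% of Efnb2 UMIs. By this measure Efnb2 was the most spread member in both libraries, and Gja5 the most gathered, level with Hey1 in the old one. A gene helps to admit its own cells here, and a version leaving it out was not run.

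All 28 pairs of members were found together in more endothelial cells than the product of their shares gave within 5 bins of depth. The ratio of observed to expected cells ran between 1.06 and 2.55 with a median of 1.24 in the old library, and between 1.25 and 5.63 with a median of 2.07 in the adult library. It exceeded 2 for 3 old pairs and 16 adult pairs. A gene found in most cells leaves little room above 1, as for Efnb2 in the old library. The highest ratio in the old library was that of Gja5 with Hey1, found together in 27 cells where 10.6 were expected, followed by Gja5 with Bmx in 23 cells where 9.06 were expected. In the adult library it was that of Gja5 with Bmx, in 34 cells where 6.04 were expected, followed by Gja4 with Gja5 in 55 cells where 14.2 were expected. The lowest was Bmx with Efnb2 in both, at 1.06 in old and 1.25 in adult. Of Gja5-positive cells, 97.9% of the 48 old and 82.7% of the 81 adult ones also carried Mecom.

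Levels were also compared within cells that carried other members. Among endothelial cells in which at least 2 of the other 7 members were found, every member was still higher in the old library. The log2 ratios there were 1.93 for Mecom (1.84 to 2.02), 1.86 for Sema3g (1.72 to 2.0), 1.27 for Gja5 (0.89 to 1.64), 1.25 for Sox17 (1.10 to 1.41), 1.15 for Bmx (0.78 to 1.52), 1.02 for Gja4 (0.87 to 1.18), 0.79 for Hey1 (0.43 to 1.14) and 0.46 for Efnb2 (0.35 to 0.56). Each was below the ratio of the same gene over all endothelial cells. Mecom, for example, had 1171 CPM in 274 such old cells and 307 in 641 such adult cells. Endothelial cells with none of the other 7 numbered only 17 to 35 in the old library. Efnb2 was present in 51.4% of these old and 38.3% of the adult cells, at 183 and 106 CPM. Sema3g and Mecom were also higher in old there, at log2 2.57 (0.81 to 4.01) and 1.64 (0.68 to 2.49), on 5 and 13 old UMIs. The intervals for Sox17 and Bmx held 0. Gja4, Gja5 and Hey1 had no UMI in 17 old cells, which allows up to 36.4 CPM. In adult cells they stood at 3.69, 0.68 and 8.72 CPM on 11, 2 and 28 UMIs. These counts of 0 therefore cannot show a difference. Requiring at least 3 of the other 7 brought the median log2 ratio over the members to 0.79. The median with at least 2 of the other 7 was 0.90 over all gated cells. The cells were chosen by detection without thinning, so depth had a part in the choice. Median depths over endothelial cells were 5031 UMIs in old and 6288 in adult. The part of depth in these ratios was not tested.

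The arterial genes were set beside sinusoidal markers of the same cells. Endothelial cells were divided by whether they held at least 3 UMIs of 16 sinusoidal genes, among them the scavenger receptors Stab1 and Stab2 and the venous factor Nr2f2. Stromal cells carry part of this list, which had a median of 20.8 UMIs per 10000 in old and 26.5 in adult cells outside the gate, against 16.3 and 38.4 in endothelial cells, so 3 UMIs need not mark a sinusoidal cell. Vcam1, for example, stood at 690 CPM in old and 1283 in adult cells outside the gate, and Stab2 at 0.628 and 11.7. Of old endothelial cells 301 (87.2%) held 3 or more and 44 did not, and of adult ones 1563 (94.7%) and 88. All 8 members were lower in the cells with 3 or more such UMIs in both libraries, with log2 ratios between -0.39 for Gja5 and -1.77 for Bmx in old and between -1.75 for Efnb2 and -3.62 for Gja4 in adult cells. The interval for Gja5 in the old library reached 0 (-1.42 to 0.86). The cells below 3 UMIs were shallower, with medians of 2994 UMIs in old and 2833 in adult cells, against 5301 and 6536 in the others.

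In cells below 3 sinusoidal UMIs the old and adult intervals lay apart only for Mecom and Gja4, which went in opposite directions. The intervals of the other members overlapped. Sox17 had 765 CPM in the 44 old and 693 in the 88 adult cells of this kind, Sema3g 682 and 608, Efnb2 835 and 725 and Hey1 83.5 and 91.6. Mecom remained apart, at 2366 in old and 1092 in adult cells, while Gja4 stood at 431 in old and 674 in adult cells. Gja5 stood at 55.7 and 98.9 on 8 and 27 UMIs, and Bmx at 132 and 121 on 19 and 33. Among cells with 3 or more sinusoidal UMIs the old library was higher for all 8, Sox17 at 237 against 61.3, Sema3g at 358 against 53.5 and Mecom at 871 against 137.

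**Figure D4:**
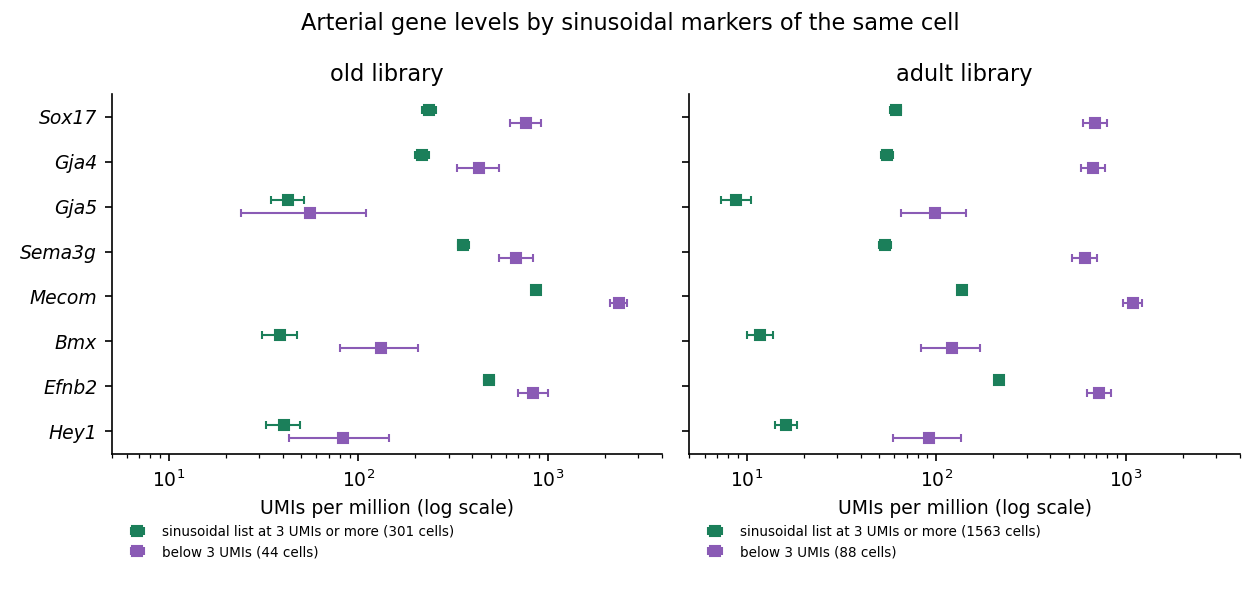
Levels of the 8 genes in CPM (log scale, 95% counting intervals) in endothelial cells with at least 3 sinusoidal UMIs (green) and below (purple), old library on the left and adult on the right. The green points lie left of the purple ones for all 8 genes in both libraries, nearer to them in the old library.

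The same division over all gated cells gave the adult picture again, with log2 ratios of -1.58 to -3.45, but turned the old one round, with log2 ratios of 2.47 to 3.65. With a shorter list, chosen after the data had been seen, of Stab2, Stab1, Flt4, Adamts5 and Dnase1l3 at 2 UMIs, 40.9% of old and 78.8% of adult endothelial cells were positive, and all 8 members were lower in them in both libraries, with log2 ratios of -0.68 to -1.65 in old and -1.63 to -4.13 in adult cells. Cells with at least 2 UMIs of Dll4, Notch4, Unc5b, Hey2, Jag1 and Jag2, genes of Notch signalling and arterial guidance, made up 71.0% of old and 48.3% of adult endothelial cells. All 8 members were higher in these in both libraries. Mecom stood at 1113 CPM in them and 339 in the others of the old library, and at 221 and 49.8 in the adult library.

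The wider arterial list went the way of the members in part. Of its 28 genes, 21 passed the minimum in endothelial cells, and 18 of these were higher and 3 lower in the old library, of which 11 were 2-fold or more higher and 0 were 2-fold or more lower, with a median log2 ratio of 1.01. Of these 11, 5 (Stmn2, Jag2, Jag1, Acvrl1 and Unc5b) were under 50 CPM in adult cells and passed the minimum through the old library. Among all 4616 genes past the minimum in endothelial cells, 5.11% were 2-fold higher and 4.29% were 2-fold lower in old. Over all 27 genes of the list with a value in both libraries 20 were higher and 7 lower, with a median of 0.64. Stmn2, encoding the microtubule regulator stathmin-2, had 180 CPM in old and 22.1 in adult endothelial cells, and the Notch ligand Jag2 had 170 and 35.3. The matrix genes Ltbp4 and Fbln5 had log2 ratios of 1.83 and 1.37, the surface antigen gene Ly6a 1.53 (outside the gate Ly6a stood at 242 CPM in old and 9.17 in adult cells, log2 4.72), the growth factor gene Vegfc 1.17, Tm4sf1 1.16, the hypoxia-regulated factor Epas1 1.13, Jag1 1.09, the BMP9 receptor Acvrl1 1.08 and the netrin receptor Unc5b 1.01. The VEGF co-receptor Nrp1 differed less, at 964 against 734 CPM (log2 0.39), and the connexin 43 gene Gja1 was lower in old cells, at 309 against 525 (log2 -0.76).

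Sinusoidal genes were mostly lower in old endothelial cells. Of 16, 15 passed the minimum, and 14 of these were lower in the old library, 8 of them at least 2-fold, with a median log2 ratio of -1.23. Among all 4616 genes past the minimum in these cells, 4.29% were 2-fold lower in old. Ackr1 and Dnase1l3 were under 50 CPM in old cells and passed the minimum through the adult library. They stood at 9.71 and 36.0 CPM in old cells, on 24 and 89 UMIs. Stab2, a hyaluronan scavenger receptor, had 192 CPM in old and 937 in adult endothelial cells, and the protease gene Adamts5 had 144 and 705, each with a log2 ratio of -2.29. The chemokine-binding receptor gene Ackr1 stood at -2.85, the apelin receptor gene Aplnr at -1.91, the mannose receptor gene Mrc1 at -1.82, Gpm6a at -1.60 and Stab1 and the adhesion gene Vcam1 at -1.23 each. Nrp2 and Il6st were lower by less than 2-fold, at -0.50 and -0.55, and Ephb4, the receptor of ephrin-B2, was the exception at 0.47, chosen for naming after its value was seen. The pan-endothelial list gave 0 genes 2-fold apart out of 12. Over all gated cells 15 of 16 arterial-list genes past the minimum and all 15 sinusoidal genes past it were lower by 2-fold or more in old gated cells. So were all 12 pan-endothelial genes, against 34.1% of the 5423 genes past the minimum.

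Other genes varied from cell to cell much as the 8 members did. Likeness was measured as Pearson's r, over the cells of a library, between a gene and the sum of the 8 members, both as the log of 1 plus UMIs per 10000, and genes were ranked by the lower r of the 345 old and 1651 adult endothelial cells. The cells of a library share its depth and handling, so r is given as a description. The highest of 9617 genes were Fbln2 (fibulin-2, a matrix protein), with r of 0.66 in old and 0.60 in adult cells, and Podxl (podocalyxin, a sialomucin of the luminal surface), with 0.60 and 0.61. They were followed by Ltbp4 at 0.53 and 0.58, Nebl, encoding an actin-binding protein, at 0.60 and 0.52, Heg1 at 0.50 and 0.49, Mast4 at 0.60 and 0.48, the taurine transporter gene Slc6a6 at 0.51 and 0.48, Ly6c1 at 0.47 and 0.55, Jag2 at 0.51 and 0.46 and Slc9a3r2 at 0.45 and 0.52. All 10 were higher in old endothelial cells, by log2 ratios between 1.08 (Mast4) and 3.18 (Nebl). Of the 4616 genes past the minimum, 5.11% were 2-fold higher there, and no such share was taken over the ranked genes. The 10 were chosen for following the members, themselves higher in old, so their direction follows in part from the choice. Among the most opposite genes, named after their values were seen, were Stab2 with -0.55 in old and -0.49 in adult cells, Mrc1, Abcc9 and Tfpi. Ly6c1 stands also on the fibroblast list and Abcc9 on the pericyte list used here.

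Outside the gate the members went separate ways. Of all UMIs in filtered cells, those in endothelial cells made up 93.0% in the old and 86.6% in the adult library for Sox17, 90.04% and 86.4% for Sema3g, and 68.6% and 66.3% for Mecom. They made up 55.2% and 47.7% for Gja4, 47.1% and 51.9% for Efnb2 and 30.5% and 34.2% for Gja5. For Hey1 and Bmx they were a minority, 11.7% and 7.16% for Hey1 and 3.95% and 5.85% for Bmx. To gauge free endothelial RNA in the droplets, the UMIs outside the gate of the 5 gate genes other than Egfl7 were taken as if all were free, and each member was scaled by its ratio to them in endothelial cells. This gave 61.3 UMIs for Sox17 in the old library, where 48 were found, and 116 in the adult library, where 143 were found. For Sema3g it gave 86.3 and 101, where 99 and 133 were found. For the other 6 members the UMIs found were 4.40 to 261 times this estimate. Cells outside the gate hold under 5 UMIs of the gate genes by definition, which caps the estimate, so it is a description and no ceiling on free RNA.

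At least 4 members were found together in only 16 of 18313 old and 21 of 20705 adult cells outside the gate. Pooled over these cells 7 of the 8 members were lower in the old library with intervals below 0, between -0.30 for Gja5 and -2.09 for Hey1 on the log2 scale, and Mecom stood at -0.11 (-0.24 to 0.01). The share of all genes lower in old cells outside the gate was not taken, so this count is no result about the members as a set. The cells differ in make-up between the libraries, so they were also divided into classes by marker lists, with minimum levels set after the data had been seen.

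Gja4 had its second home in cells with pericyte and smooth muscle markers such as Acta2, Rgs5 and Notch3. In these it stood at 202 CPM (176 to 231) in 168 old cells and 272 (251 to 295) in 359 adult cells, found in 53.0% and 63.0% of them, against 1.02% and 0.402% of CAR-like cells. The old level was close to that in old endothelial cells (229), and the adult level was above that in adult endothelial cells (67.1). The log2 ratio of old over adult was -0.43 (-0.66 to -0.21), against 1.77 in endothelial cells. Efnb2 in the same cells stood at 89.6 and 92.7 CPM, with an interval of the log2 ratio that held 0 (-0.41 to 0.31), and Hey1 at 21.7 and 29.6, with an interval that also held 0 (-1.20 to 0.25). Sox17, Gja5, Sema3g, Mecom and Bmx had no UMI in the 168 old cells, where a limit of 3 counts allows up to 1.79% of cells with a UMI of each, and 1 to 4 UMIs in the 359 adult cells.

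Most Bmx UMIs lay in CAR-like cells, which produce CXCL12 and express the leptin receptor. These were also most of the filtered cells, 14269 of 18975 in the old and 15158 of 22403 in the adult library. They held 86.8% and 85.5% of all Bmx UMIs, at 20.6 and 23.3 CPM, and Bmx was found in 11.6% and 13.0% of them. The endothelial level lay above this in the old library (44.1) and below it in the adult library (13.9). Its highest level was in the few cells with neutrophil markers, 97.9 CPM in 75 old cells and 159 in 14 adult cells, on 79 and 12 UMIs. Gja5 in CAR-like cells stood at 1.74 and 2.04 CPM, far below its endothelial levels, yet these cells held 57.8% of old and 57.4% of adult Gja5 UMIs. Mecom there stood at 6.36 and 6.24 CPM, a log2 ratio of 0.03 (-0.12 to 0.17).

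Efnb2 and Hey1 also differed between the libraries in stromal cells, Hey1 against its endothelial direction and Efnb2 in either direction by class. Efnb2 stood at 6.33 CPM in old and 10.7 in adult CAR-like cells (log2 -0.76, -0.89 to -0.63), but at 40.2 in 463 old and 20.8 in 1174 adult osteolineage-like cells (log2 0.95, 0.74 to 1.17). Hey1 stood at 5.55 in old and 14.6 in adult CAR-like cells (log2 -1.40, -1.53 to -1.26) and at 5.06 and 9.58 in osteolineage-like cells. Its largest gap was in cells that met no class minimum, with 4.81 CPM in 910 old and 74.99 in 1254 adult cells, found in 3.96% and 30.4%. With the class minima doubled these levels were 2.74 and 50.4, and with the minima halved 8.80 and 82.9. The 381 adult cells of this kind with Hey1 had medians of 92.9 UMIs per 10000 of osteolineage markers and 12475 UMIs, and the 873 without Hey1 had 68.1 and 4017. The 36 old cells with Hey1 had 84.1 and 8905.5, and the 874 old cells without it 16.3 and 5550, so the cells of no class differed in make-up between the libraries, and the part of this in the gap was not tested.

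**Figure D5:**
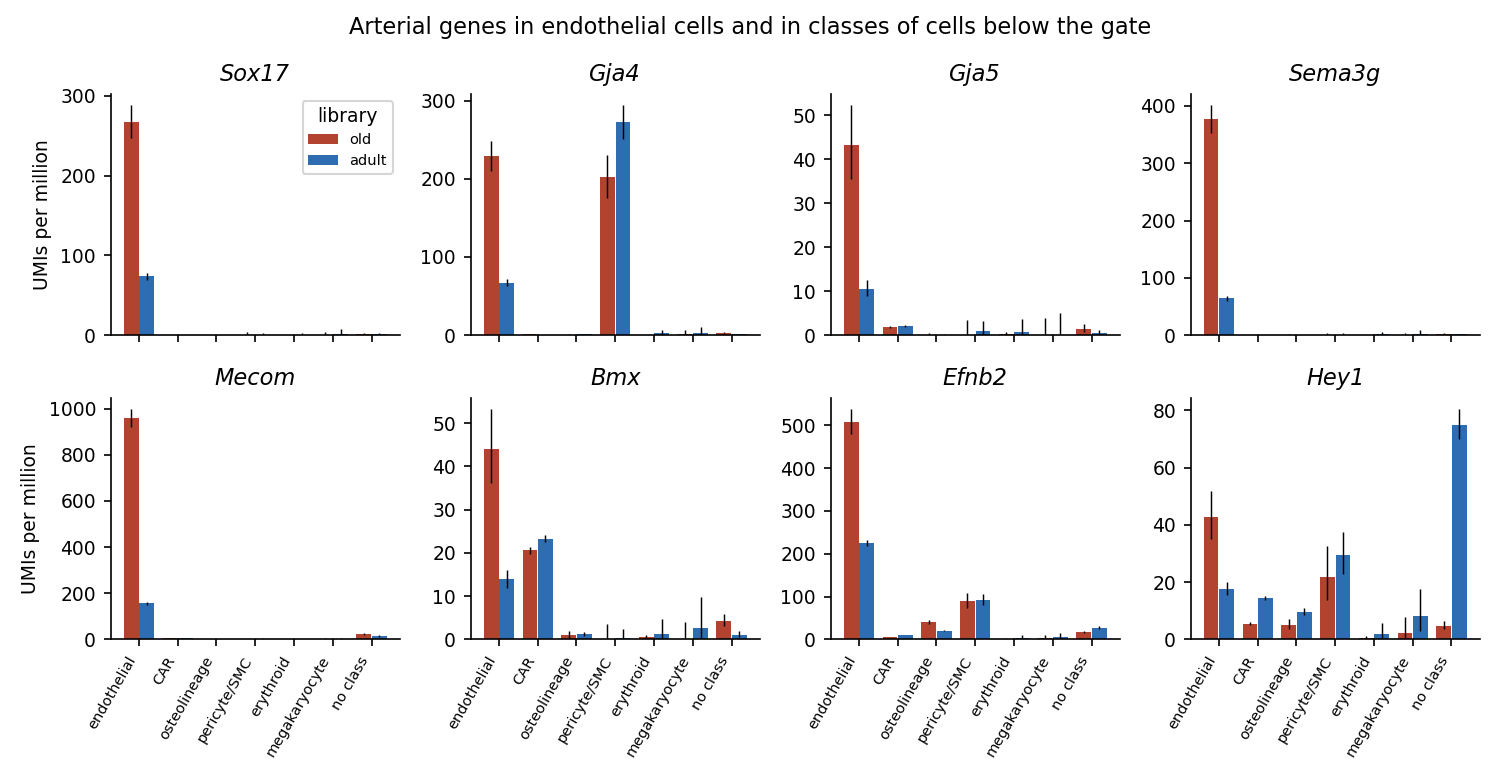
Level of each of the 8 genes in CPM (vertical, linear from 0, a scale for each gene, 95% counting intervals) in endothelial cells and in 6 classes of cells below the gate, old bars left of adult bars. Sox17, Gja5, Sema3g, Mecom and Efnb2 stand highest in endothelial cells in both libraries, and Gja4, Bmx and Hey1 do so in the old library. In the adult library Gja4 stands highest in pericyte and smooth muscle cells, Bmx in CAR cells and Hey1 in cells of no class (74.99).

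Erythroid-like and megakaryocyte-like cells below the gate held few UMIs of any member. In 601 old and 175 adult erythroid-like cells the highest was Efnb2 with 35 and 7 UMIs, found in 3.83% and 2.29% of cells, and Sox17 had none. In megakaryocyte-like cells, of which there were 314 in the old and 372 in the adult library at median depths of 1628.5 and 1557 UMIs, no member had more than 6 UMIs.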

How the data were processed

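The authors deposited raw UMI counts per gene and barcode for each library, made with Cell Ranger 7.0.1, per the file headers, on GRCm39, per the submitters' processing notes. Counts were read as sparse matrices with Python 3.11.15, numpy 2.4.6 and scipy 1.17.1. Cells with at least 500 genes and at most 10% mitochondrial UMIs were kept, and doublets were not removed. Members, lists and comparisons were chosen with earlier results of these data known. Levels (CPM) are UMIs summed over cells per 1000000 UMIs of those cells. Genes were called 2-fold apart from 50 CPM and 50 UMIs in the library where they were higher. With 1 library per age no p-value was computed. Beside the members, the text names the 6 genes with most endothelial UMIs and the 2-fold genes of the arterial and sinusoidal lists, and the 10 genes most alike. Cells below the gate were classed, after the data had been seen, as having at least 60 UMIs per 10000 of CAR, 300 of osteolineage, 60 of chondrocyte, 50 of pericyte or smooth muscle, 100 of megakaryocyte, 10 of erythroid, 20 of plasma cell or 100 of neutrophil markers, and only 1 of these. Levels, intervals and thinning were tested on simulated data. Gene lengths came from GENCODE vM21 on GRCm38, so no gene coordinates on the build of the counts are given. Alternatives covered the gate, the barcode filter, mixed cells, scaling, gene length, thinning and thresholds.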

Additional observations from a re-analysis of the deposited data

Results flagged for a closer look

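Several members stood higher in old endothelial cells and lower in another class of old cells, with both counting intervals clear of 0 and with more than 2 times the estimate of free endothelial RNA in both libraries, which is capped by the gate and no ceiling. Each also had at least 50 UMIs in the adult cells of that class. The difference between cell classes was not tested, since each age has 1 library. Hey1, with a log2 ratio of 1.28 in endothelial cells, had -1.40 in CAR-like cells (-1.53 to -1.26), -0.92 in osteolineage-like cells (-1.49 to -0.39), -1.24 in cells with both kinds of marker (-2.47 to -0.23) and -3.96 in cells of no class (-4.44 to -3.52). Efnb2, with 1.17 in endothelial cells, had -0.76 in CAR-like cells (-0.89 to -0.63) and -0.63 in cells of no class (-0.92 to -0.34). Gja4, with 1.77, had -0.43 in pericyte or smooth muscle cells (-0.66 to -0.21). Bmx, with 1.67, had -0.18 in CAR-like cells (-0.26 to -0.10). Other classes, not held to these minima, went with the endothelial direction. Efnb2 stood at 0.95 in osteolineage-like cells (0.74 to 1.17) and Gja4 at 1.43 in CAR-like cells (0.99 to 1.87). In cells of no class Gja4 stood at 1.88 (0.75 to 3.15) on 28 old and 9 adult UMIs. Bmx stood there at 1.94 (0.98 to 3.01) on 39 and 12 UMIs. The cells of no class without Hey1 had a median of 16.3 UMIs per 10000 of osteolineage markers in the old and 68.1 in the adult library.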

How the results depend on the processing

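The values here are log2 ratios of old over adult unless a count is named, and "at 3 genes" means within endothelial cells with at least 3 gate genes. Over all gated cells the choice of gate decided the direction of the members. The median over the 8 members was -1.48 at 5 gate UMIs, -0.12 at 10 UMIs (Gja5 0.035, Sema3g 0.50, Mecom 0.63) and 1.45 at 20 UMIs (Sox17 1.46, Gja4 1.44, Gja5 1.42, Bmx 1.68, Efnb2 0.75, Hey1 0.74, Sema3g 2.01, Mecom 2.15). It was 1.81 with at least 3 of the 6 gate genes (Sox17 1.86, Gja4 1.77, Gja5 2.03, Bmx 1.67, Efnb2 1.17, Hey1 1.28), 1.77 with 1 gate UMI per 1000 UMIs (Sox17 1.67, Gja4 1.62, Gja5 1.87, Bmx 1.91, Efnb2 1.01, Hey1 1.25) and 1.74 with a gate without Egfl7, added after the data had been seen (Sox17 1.77, Gja4 1.70, Gja5 2.02, Bmx 1.68, Efnb2 1.08, Hey1 1.23). Sema3g and Mecom, -0.75 and -0.67 at 5 UMIs, were positive in each of these last 3 too, at 2.38 to 2.55 and 2.499 to 2.62. Without cells carrying blood markers the median over the 8 was 0.41 (Sox17 0.47, Gja4 0.34, Gja5 0.71, Bmx 0.31, Sema3g 1.07, Mecom 1.25, Hey1 0.075, with Efnb2 still at -0.25), per gate UMI 1.41 (Sox17 1.44, Gja4 1.37, Gja5 1.65, Bmx 1.34, Efnb2 0.81, Hey1 1.01, Sema3g 2.14, Mecom 2.22) and with each cell weighted alike 0.84 (Sox17 0.81, Gja4 0.70, Gja5 0.88, Bmx 0.92, Efnb2 0.25, Hey1 0.66, Sema3g 1.61, Mecom 1.68). The median stayed negative without cells high in CAR markers (-2.29), without immunoglobulin, haemoglobin, mitochondrial and ribosomal genes (-1.21) and centred by gene length (-1.79, though Gja5 was 0.30 and Mecom 1.54). At 3 genes all 8 members were higher in old under all 13 alternatives run, and at least 2-fold higher except for 1 member at 10 UMIs and 2 at 20 UMIs. The median there moved to 1.55 at 20 UMIs and to 1.99 centred by gene length.

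The log2 ratio of the gated share of cells, -1.12, became -1.67 at 10 UMIs, -2.23 at 20 UMIs, -2.02 with 3 gate genes, -1.92 by depth, -0.93 without CAR markers, -1.71 without blood markers and -1.97 without Egfl7, and at 3 genes -2.24 at 20 UMIs and -2.29 without CAR markers. The median ratio of thinned positive shares, 0.75, became 1.45 at 10 UMIs, 1.63 at 20 UMIs, 1.82 with 3 gate genes, 1.72 by depth, 1.44 without blood markers, 1.88 without Egfl7 and 0.15 thinned to 5000 UMIs; at 3 genes it was 2.08 without CAR markers and 1.46 with no thinning. The ratio of cells with at least 2 members, 0.13, became 0.57 at 10 UMIs, 0.69 at 20 UMIs, 0.99 with 3 gate genes, 0.99 by depth, -0.23 without CAR markers, 0.78 without blood markers, 0.95 without Egfl7, 0.62 for at least 3 members and 0.46 for at least 2 members after thinning to 3000 UMIs. At 3 genes it was 0.70 at 20 UMIs, 1.52 for at least 3 members and 1.41 for at least 2 members after thinning. The count of genes 2-fold apart, 3378 over all gated cells, was 396 at 20 UMIs, 434 with 3 gate genes, 421 by depth, 2142 without blood markers, 483 without Egfl7, 5080 from 20 CPM and 2017 from 100. At 3 genes it was 752 from 20 CPM, 245 from 100, 917 at 1.5-fold and 188 at 3-fold. The median outside the gate, -0.82, was -0.56 at 20 UMIs, -0.97 with 3 gate genes and -0.97 by depth. Where at least 1 of the other 7 members was found the median was 0.15 over all gated cells and 1.60 at 3 genes, and with at least 3 others it was 0.79 at 3 genes. The median log2 ratio of sinusoidal-positive over other cells was, over all gated cells, 2.5 at 5 UMIs and 1.21 by 5 genes in old, and -2.93 at 1 UMI and -2.56 by 5 genes in adult. At 3 genes it was -1.41 at 1 UMI and -1.32 by 5 genes in old, and -2.72 at 1 UMI, -3.16 at 5 UMIs and -2.64 by 5 genes in adult.

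Leaving out gated cells with CAR or blood markers gave no separate value for cells outside the gate. No paired analysis was possible because each age has 1 library and the labels carry no replicate numbers. Depth limits Gja5, Bmx and Hey1 most, each with 106 to 109 UMIs in old endothelial cells.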
